A study of Mus musculus with 6 samples.

Results

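Kupffer cells are the resident macrophages of the liver. They line the sinusoids, where they bind and engulf bacteria, worn red blood cells and dying cells from portal blood, and they are recognised by a set of surface receptors and secreted opsonins that other liver cells largely lack. The set examined here holds 10 such genes: Adgre1, Clec4f, Timd4, Vsig4, Marco, Cd163, Cd5l, C1qa, C1qb and C1qc. They were chosen by name, as every probe set annotated to exactly 1 of these symbols, and each gene was measured by 1 probe set. These are 10 of the 17097 genes on the array, and all 10 passed the limit for dim signal that left 12466 genes for testing. Timd4 passed it through its knockout arrays, since its wild-type mean lay just under the limit; the other 9 had means above it in both genotypes.

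RNA from whole liver of Nrg4 knockout mice and of wild-type mice was hybridised to 3 arrays per genotype, each an independent pool of liver RNA. Nrg4 encodes neuregulin 4, a secreted ligand of ErbB receptors that is enriched in brown fat. Both genotypes were labelled C57BL/6, began a high-fat diet at 3 months, stayed on it for 8 weeks and were sampled in the random-fed state. How many mice made up a pool, their sex and the knockout allele were not stated in the labels, so p-values describe the spread between pools. All values are log2 RMA signal (robust multi-array average, a background-corrected and quantile-normalised probe set summary), and the levels of different probe sets are not set against each other. The number of arrays limits the precision.

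The labels were checked on Nrg4, which read 2.56, 2.43 and 2.64 in the knockout arrays, against 4.94, 4.79 and 4.77 in the wild-type arrays. The hepatocyte marker Alb lay between 12.3 and 12.4 on all 6 arrays. Array medians were 2.98 to 3.04. Of all genes tested 63.4% had a higher mean in the knockout, and the median log2 change over all genes was 0.045. One knockout array stood apart in the controls for RNA quality. For the Actb and Gapdh controls, the 5′ signal minus the 3′ signal averaged -1.31 on the first knockout array, -0.70 and -0.65 on the other two knockout arrays, and -0.96 to -0.78 on the wild-type arrays. Other controls separated the genotypes: the 18S 3′ control read 6.67 to 6.89 in the knockout arrays, against 7.45 to 7.73 in the wild-type arrays, and the brightest control for nonspecific signal read 5.68 to 5.84 in the knockout arrays, against 5.29 to 5.48 in the wild-type arrays. The median of the controls for nonspecific signal was 1.65 to 1.76, so a value under the brightest one need not be background. The wild-type values of Nrg4 also lay under the brightest one. The part of all these controls in the results was not tested. The 10 genes are given with all 6 arrays and without knockout replicate 1, and other gene lists with all 6 arrays.

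The promoters of 8 of the 10 genes are in the RefSeq sequences used here (build GRCm38.p6). PU.1, the ETS factor that macrophages need, binds purine-rich sites built around the letters GAGGAA. These letters, searched on both strands, occurred in the 250 bases before the start of 5 of the 8 genes, namely C1qb, C1qc, Cd5l, Marco and Vsig4, against 23.3% of all 32851 promoters of that length. The promoters of C1qb and C1qc are shown because these genes encode chains of 1 protein and gave nearly the same profile over the arrays, and that of Marco because its signal varied most between arrays. Capitals mark the PU.1 letters on either strand.
C1qb, chr4:136886201-136886450, strand minus: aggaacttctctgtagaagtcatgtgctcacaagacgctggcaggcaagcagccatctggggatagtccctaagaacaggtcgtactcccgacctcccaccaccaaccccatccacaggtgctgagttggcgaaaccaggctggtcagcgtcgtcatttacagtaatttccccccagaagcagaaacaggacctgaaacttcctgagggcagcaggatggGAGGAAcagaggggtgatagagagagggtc
C1qc, chr4:136892915-136893164, strand minus: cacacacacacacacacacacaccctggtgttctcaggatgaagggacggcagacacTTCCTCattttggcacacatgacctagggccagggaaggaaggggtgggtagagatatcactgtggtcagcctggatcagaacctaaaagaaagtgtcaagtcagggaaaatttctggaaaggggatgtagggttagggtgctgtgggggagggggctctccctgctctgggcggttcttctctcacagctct
Marco, chr1:120505025-120505274, strand minus: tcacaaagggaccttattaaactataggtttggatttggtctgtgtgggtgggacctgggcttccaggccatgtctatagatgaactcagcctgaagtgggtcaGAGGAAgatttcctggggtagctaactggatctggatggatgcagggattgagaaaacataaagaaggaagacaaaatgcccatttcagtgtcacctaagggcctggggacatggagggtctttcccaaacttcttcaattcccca

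The match began 30 bases before the start in C1qb, 193 bases before it in C1qc and 146 bases before it in Marco. Vsig4 held 2 matches, 155 and 53 bases before its start, and Cd5l held 1 on the opposite strand, 66 bases before its start. The letters TGCTGA, part of the site bound by large MAF factors, occurred in C1qb, Cd5l, Clec4f and Timd4, against 16.1% of all promoters. The letters TGGGAA, the core bound by RBPJ, the effector of Notch signalling, occurred in Clec4f and Marco, against 21.6% of all promoters. The direct repeat of the liver X receptors (AGGTCA, any 4 bases and AGGTCA again) occurred in none of the 8 promoters and in 0.0152% of all. No matches of different motifs overlapped in these promoters, and a match describes only the letters in this window.

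All 10 genes had a higher mean in the knockout than in wild type, where 63.4% of all genes did, and none of the 10 passed the test. The log2 changes lay between 0.15 for C1qc and 0.90 for Marco, with a median of 0.33, against 0.045 for all genes tested. With limma (a moderated linear model, 3 against 3 arrays, Benjamini-Hochberg adjustment over all genes, threshold 0.05) the adjusted p-values of the 10 genes ran from 0.143 to 0.864. Of all genes tested, 0.0401% passed, with 0.016% higher and 0.0241% lower in the knockout. At an unadjusted limma p under 0.05, 4 of the 10 were higher, namely Adgre1, Cd5l, C1qa and Timd4, and 0 were lower, where 7.36% of all genes were higher and 2.18% lower. Timd4 entered the test through the knockout arrays, where it is high. Its place in these counts and in the median is thus no support for a difference. In whole liver RNA, a different number of cells of a type and a different amount of RNA per cell cannot be told apart.

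**Figure D1:**
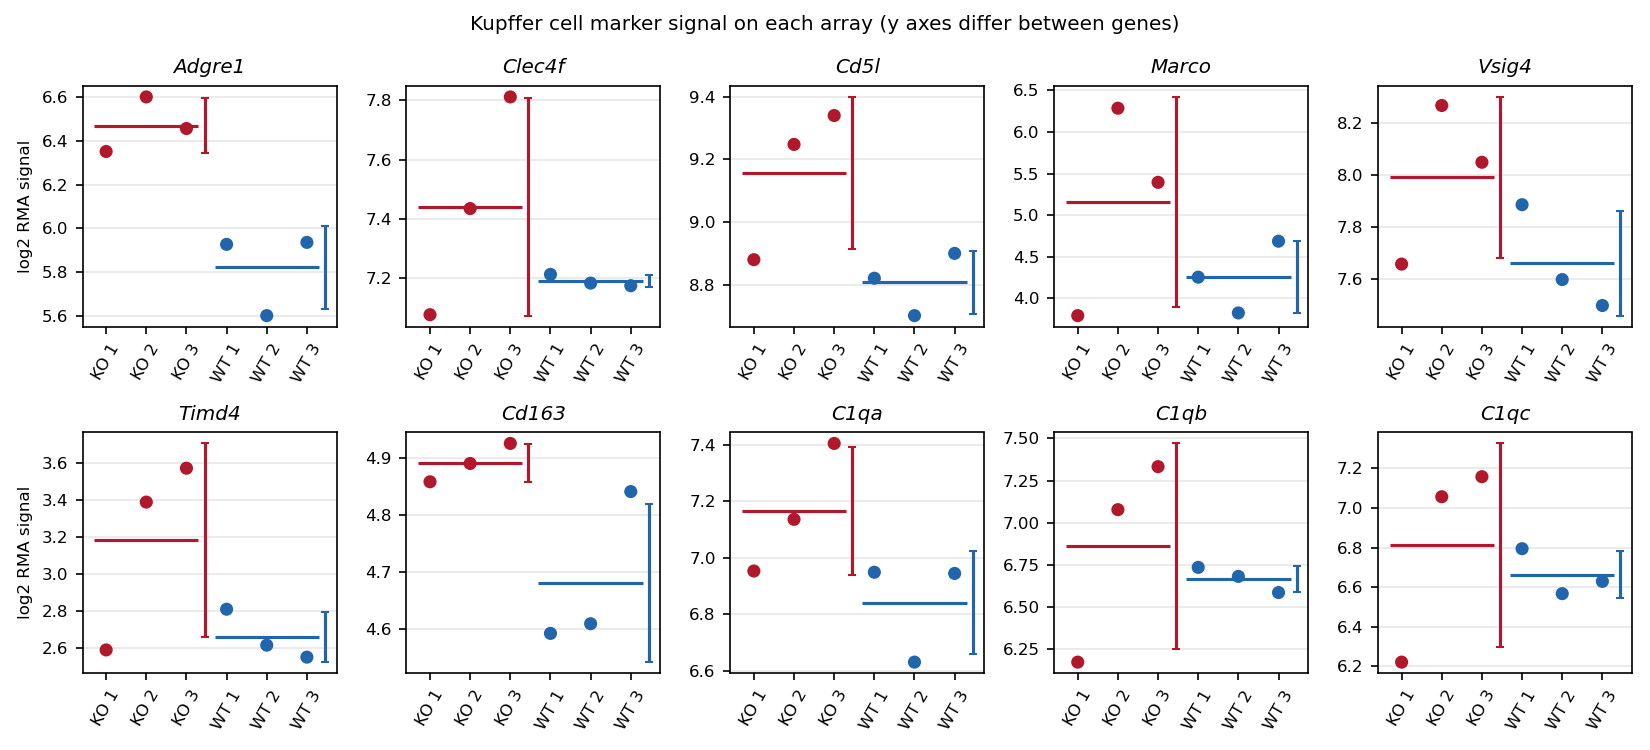
Signal of the 10 Kupffer cell markers on each array, as log2 RMA values on separate y axes, with knockout arrays (red) left of wild-type arrays (blue). Lines are genotype means and bars 1 SD (n = 3); in 7 panels knockout replicate 1 lies level with or below wild type while knockout replicates 2 and 3 lie above it, and in Adgre1, Cd163 and C1qa all knockout arrays lie above all wild-type arrays.

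Adgre1 encodes an adhesion G protein-coupled receptor carried by most mouse tissue macrophages. It read 6.35, 6.60 and 6.45 in the knockout arrays, against 5.93, 5.60 and 5.94 in the wild-type arrays. Every knockout array thus lay above every wild-type array, knockout replicate 1 included. The means were 6.47 ± 0.12 in the knockout and 5.82 ± 0.19 in wild type (SD, n = 3 each), a 1.56-fold higher signal with a log2 change of 0.64 (SE 0.12, 95% interval 0.37 to 0.92). It ranked 43rd of 12466 genes by unadjusted p, and its limma adjusted p was 0.143. Without knockout replicate 1 the log2 change was 0.70 (adjusted p = 0.0962). Array weights, which let arrays with larger residuals count less, gave a limma adjusted p of 0.0455, and in that fit 0.401% of all genes passed.

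Clec4f encodes a C-type lectin for galactose-ended glycans that, in mouse, is found almost only on Kupffer cells. It read 7.08, 7.43 and 7.81 in the knockout arrays, against 7.21, 7.18 and 7.17 in the wild-type arrays. The wild-type arrays lay very close together (SD 0.02), and the knockout arrays spread around them (SD 0.37). Knockout replicate 1 was the lowest of the 6 arrays and knockout replicate 3 the highest. The log2 change was 0.25 (SE 0.16, 95% interval -0.13 to 0.63, limma adjusted p = 0.66), and 0.43 without knockout replicate 1 (SE 0.12, adjusted p = 0.182).

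Timd4 encodes TIM-4, a receptor for phosphatidylserine through which long-lived resident macrophages take up dying cells. It read 2.59, 3.39 and 3.57 in the knockout arrays, against 2.81, 2.61 and 2.55 in the wild-type arrays. Knockout replicate 1 lay within the wild-type range, and the other two knockout arrays lay above it. The log2 change was 0.53 (SE 0.23, 95% interval 0.01 to 1.04, limma adjusted p = 0.52). Without knockout replicate 1 it was 0.82 (SE 0.11, adjusted p = 0.0581). This probe set was dim: its wild-type mean of 2.657 lay under the limit for dim signal, 2.663, which the gene passed only through the knockout arrays, and all 6 values lay under the brightest control probe set for nonspecific signal on the same array, 5.29 to 5.84.

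Vsig4 encodes CRIg, the receptor with which Kupffer cells catch bacteria coated with complement fragments. It read 7.66, 8.27 and 8.05 in the knockout arrays, against 7.88, 7.60 and 7.50 in the wild-type arrays. Knockout replicate 1 lay inside the wild-type range, under wild-type replicate 1 only. The genotypes thus overlapped through these arrays, and knockout replicates 2 and 3 lay above all wild-type arrays. The log2 change was 0.33 (SE 0.17, 95% interval -0.05 to 0.71, limma adjusted p = 0.562), and 0.50 without knockout replicate 1 (SE 0.14, adjusted p = 0.178).

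The scavenger receptors were the widest and the narrowest of the set. Marco, a class A scavenger receptor with a collagen-like stalk that binds bacteria and particles, read 3.79, 6.29 and 5.39 in the knockout arrays, against 4.26, 3.83 and 4.69 in the wild-type arrays. Its 6 values spanned 2.49 on the log2 scale, and knockout replicate 1 was the lowest of all while knockout replicate 2 was the highest. The knockout SD was 1.26 and the wild-type SD 0.43. Its log2 change of 0.90, a 1.87-fold higher signal, was the largest of the set and the least certain (SE 0.53, 95% interval -0.31 to 2.12, limma adjusted p = 0.618). The log2 change was 1.58 without knockout replicate 1, a 3.00-fold higher signal (SE 0.31, limma adjusted p = 0.109), and 0.34 without knockout replicate 2. The size of the change thus depended on which arrays were used. On 5 of the 6 arrays Marco lay under the brightest control for nonspecific signal.

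Cd163 encodes the receptor that clears haptoglobin-bound haemoglobin. It read 4.86, 4.89 and 4.93 in the knockout arrays, against 4.59, 4.61 and 4.84 in the wild-type arrays. The knockout arrays were tight (SD 0.03) and all lay above wild type, although knockout replicate 1 and wild-type replicate 3 almost met. The log2 change was 0.21 (SE 0.10, 95% interval -0.01 to 0.43, limma adjusted p = 0.532) and 0.23 without knockout replicate 1. All 6 values lay under the brightest control for nonspecific signal.

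Cd5l encodes a secreted member of the scavenger receptor family that macrophages release into blood, also known as AIM. It read 8.88, 9.25 and 9.34 in the knockout arrays, against 8.82, 8.70 and 8.90 in the wild-type arrays. Knockout replicate 1 lay just under the highest wild-type array. The log2 change was 0.35 (SE 0.13, 95% interval 0.05 to 0.64, limma adjusted p = 0.454), a 1.27-fold higher signal. Without knockout replicate 1 it was 0.49 (SE 0.10, adjusted p = 0.111). Of the 10 genes, Cd5l lay closest to the mean profile of the other members, with a root mean square difference of 0.11 on the log2 scale over the 6 arrays.

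C1qa, C1qb and C1qc encode the A, B and C chains of C1q, the recognition molecule of the classical complement pathway, and macrophages are its main source. The genes lie next to each other on 1 chromosome in the RefSeq order, and none of the 10 members shares a chromosome with Nrg4. C1qa read 6.95, 7.14 and 7.40 in the knockout arrays, against 6.95, 6.63 and 6.94 in the wild-type arrays. Its genotypes were separated by less than 0.01, between knockout replicate 1 and wild-type replicate 1. The log2 change of C1qa was 0.32 (SE 0.14, 95% interval 0.01 to 0.64, limma adjusted p = 0.517), and 0.43 without knockout replicate 1 (adjusted p = 0.209).

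C1qb read 6.17, 7.08 and 7.33 in the knockout arrays, against 6.74, 6.68 and 6.59 in the wild-type arrays. C1qc read 6.22, 7.06 and 7.16 in the knockout arrays, against 6.79, 6.57 and 6.63 in the wild-type arrays. In both chains knockout replicate 1 lay below every wild-type array and knockout replicates 2 and 3 lay above every one. The log2 changes over 6 arrays were 0.19 for C1qb (SE 0.25, limma adjusted p = 0.84) and 0.15 for C1qc (SE 0.22, limma adjusted p = 0.864). Without knockout replicate 1 they were 0.54 (SE 0.11, adjusted p = 0.111) and 0.44 (SE 0.10, adjusted p = 0.138). Without knockout replicate 3 they turned to -0.042 and -0.025, so the sign of the change in these chains depended on which knockout arrays were used. The wild-type arrays were close together, with an SD of 0.08 for C1qb and 0.12 for C1qc.

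**Figure D2:**
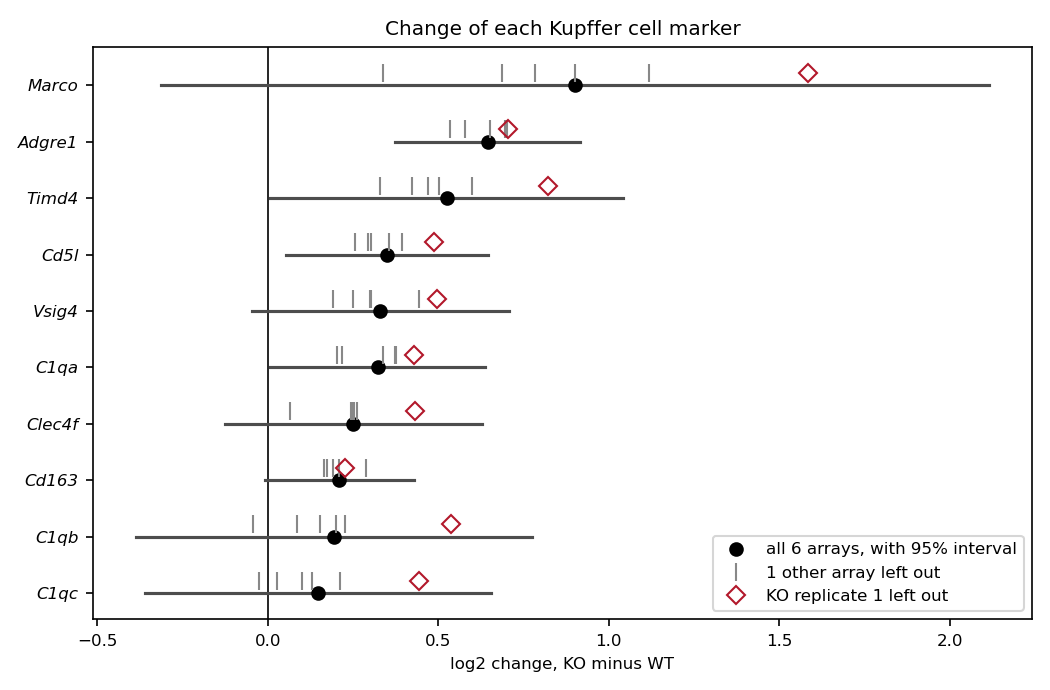
Log2 change of each marker, knockout minus wild type, over 6 arrays (black points, with limma's 95% interval as bars) and after leaving out 1 array (grey ticks, or a red diamond for knockout replicate 1). The points are above 0 in all 10 genes, and the diamond of Marco lies farthest from its point, at 1.58. The diamond lies to the right of the point in each gene because knockout replicate 1 was its lowest knockout array.

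The array-by-array pattern was shared. Knockout replicate 1 had the lowest value of the 3 knockout arrays in 10 of 10 genes, where it was the lowest in 46.5% of all genes tested, knockout replicate 2 in 29.1% and knockout replicate 3 in 24.3%. Its gap to the next knockout array was smallest in Cd163, at -0.03, and largest in Marco, at -1.60. Knockout replicates 2 and 3 both lay above all wild-type arrays in 10 of 10 genes, against 26.7% of all genes. In 3 of these, Adgre1, Cd163 and C1qa, knockout replicate 1 lay above wild type as well, where all 3 knockout arrays did so in 11.7% of all genes; the reverse, all knockout arrays below wild type, held for 0 of the 10 and 3.92% of all genes. In the other 7 it did not, which was the pattern of 15% of all genes. It lay within the wild-type range for Cd5l, Vsig4 and Timd4 and below all wild-type arrays for Clec4f, Marco, C1qb and C1qc. Timd4 entered the set tested through its knockout arrays, so its place in these counts is no support for a difference.

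With each gene centred on its own mean over the 6 arrays, the mean of the 10 genes was -0.26, 0.42 and 0.43 in the knockout arrays, against -0.12, -0.32 and -0.14 in the wild-type arrays. Knockout replicate 1 thus stood between the wild-type arrays, and wild-type replicate 2 was the lowest of the 6. Leaving out knockout replicate 1, the lowest knockout array in all 10 genes, could only raise each change, which the choice of array fixed. All 10 thus kept a higher knockout mean (64.6% of all genes did), and their median log2 change was 0.49. Of the 10 genes, 9 had an unadjusted limma p under 0.05 (12.6% of all genes did so in the higher direction), the exception being Cd163. Timd4 is among the 9, but it entered the test through its knockout arrays. Its place in these counts and in the median is thus no support for a difference. None of the 10 passed after adjustment. Their limma adjusted p-values ran from 0.0581, for Timd4, to 0.34, where 0.136% of all genes passed. Knockout replicate 1 was also the array with the lowest 5′ minus 3′ control signal, and the part of RNA quality in this pattern was not tested.

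The genes differed in how closely they followed each other. Over 45 pairs the root mean square difference between centred profiles had a median of 0.24 on the log2 scale. The closest pairs were Cd5l with C1qa at 0.08 and C1qb with C1qc at 0.09, while C1qa lay 0.27 from C1qb and 0.23 from C1qc. The chains of C1q were thus not equally alike on these arrays. The 9 pairs that hold Marco were the 9 most distant, at 0.60 to 0.82. Adgre1 and Cd163, which showed little dip in knockout replicate 1, lay 0.40 and 0.36 from C1qb, which showed a large one. Whether these differences between genes exceed array error was not tested.

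**Figure D3:**
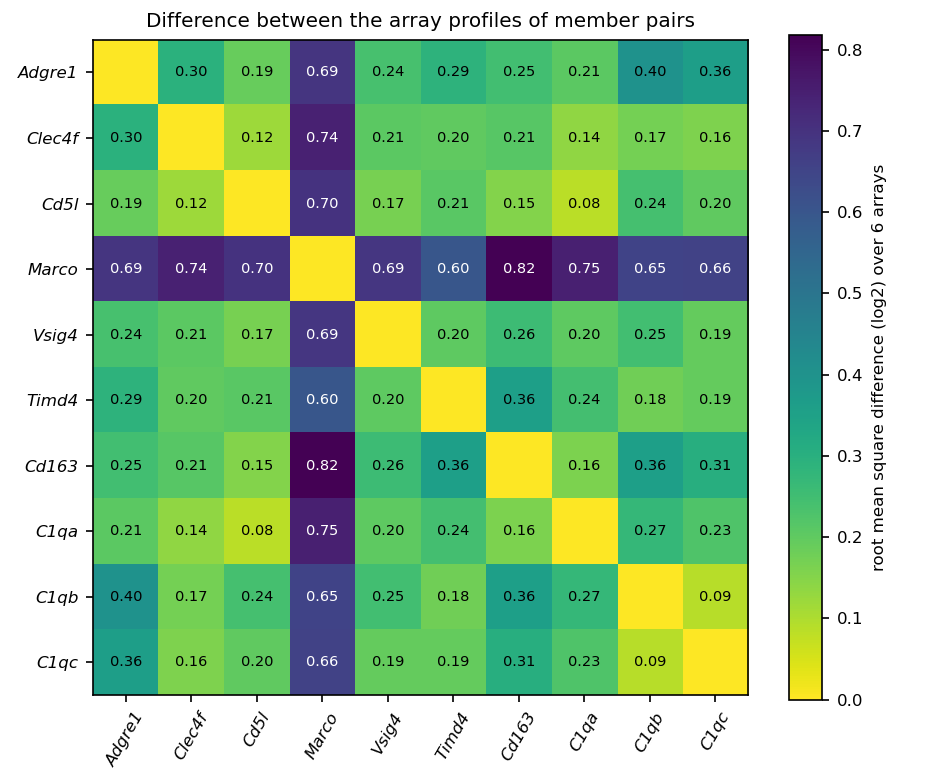
Root mean square difference, on the log2 scale, between the centred 6-array profiles of each pair of the 10 markers (darker is farther apart). Cd5l with C1qa (0.08) and C1qb with C1qc (0.09) are the closest pairs, and the row of Marco holds the largest values.

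By the same measure, the genes outside the set closest to its mean profile were Gsap, H4c9, Smchd1, Klhl28, Gpx7 and Ikbke, at 0.048 to 0.079 over the 6 arrays. Gsap, the closest, read 4.26, 5.03 and 5.10 in the knockout arrays, against 4.42, 4.28 and 4.44 in the wild-type arrays. Ikbke, a kinase of interferon and NF-kB signalling, read 4.58, 5.32 and 5.26 in the knockout arrays, against 4.57, 4.63 and 4.70 in the wild-type arrays. Their low knockout replicate 1 follows from how they were chosen, since the mean profile of the set has it too. Neither passed the test (limma adjusted p = 0.55 and 0.516).

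Other genes of the same cells were set beside the 10, with the 10 left out of each list. Some genes are in more than 1 list, so the lists are not independent of each other. In none of these lists did a gene pass over all genes tested. Each count is to be read against all genes tested, of which 63.4% had a higher knockout mean and 11.7% had all knockout arrays above wild type. Of 138 list genes tested, 64 lay under the brightest control for nonspecific signal on all 6 arrays, among them Cd207, Folr2, Spic, Tfec, Irf8, Spi1, Gdf2, Fcgr1, Ccr2, Trem2, Gpnmb, Treml4 and Cdh5, and 11 more did so on 1 to 5 arrays, among them Lyve1 and Hmox1. Of 12 other genes enriched in Kupffer cells, 9 had a higher knockout mean, and the median log2 change was 0.07. Those with the smallest p were Cd207 at 0.43, the folate receptor gene Folr2 at 0.41 and the syndecan gene Sdc3 at 0.28. They were the 3 of the 12 with all knockout arrays above wild type, where 11.7% of all genes had this. Fcna, a ficolin of the lectin complement pathway, stood at 0.08 and Slc40a1, which encodes the iron exporter ferroportin, at 0.15.

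Of 9 transcription factors of Kupffer cells 6 were higher, with a median of 0.07. Spic, a factor of haem-handling macrophages, stood at 0.33, Tfec at 0.28 and Irf8 at 0.46. Spic and Tfec were the 2 of the 9 with all knockout arrays above wild type, where 11.7% of all genes had this. Spi1, which encodes PU.1, stood at 0.20. The 3 lower ones were Id1 at -0.37, with overlapping genotypes, Maf at -0.05 and Nr1h3, which encodes liver X receptor alpha, at -0.02. Of 11 genes for survival and niche signals, 8 were higher (median 0.11). Tgfbr2, a receptor for TGF-beta, stood at 0.41, Gdf2, which encodes BMP9, at 0.22 and Csf1r, the receptor for the macrophage growth factor CSF1, at 0.20.

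Of the pan-macrophage genes 15 of 16 were higher, with a median log2 change of 0.41, and 6 had no overlap between genotypes, where 11.7% of all genes had all knockout arrays above wild type. The Fc receptor gene Fcgr1 stood at 0.41, the mannose receptor gene Mrc1 at 0.41 and the adaptor gene Tyrobp at 0.45, with limma adjusted p-values of 0.238 to 0.357. Their list mean was -0.11, 0.19 and 0.41 in the knockout arrays, against -0.07, -0.21 and -0.21 in the wild-type arrays, so knockout replicate 1 lay within wild type here too. Markers of recruited and lipid-associated macrophages and monocytes were higher in 6 of 9, with a median of 0.05. Plac8 stood at 0.52, Ccr2 at 0.22 and Lgals3 at 0.32, while Trem2 was at -0.10 and Gpnmb at 0.01. Markers of peritoneal and splenic macrophages were higher in 4 of 4 (median 0.33), led by Treml4 at 0.87 with a limma adjusted p of 0.0853. Selp stood at 0.38, Icam2 at 0.28 and Gata6 at 0.01, each with overlapping genotypes. All 4 genes lay under the brightest control for nonspecific signal on all 6 arrays.

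The functional partners of the 10 genes varied in direction. Of 7 classical complement genes besides C1q 3 were higher and 4 lower (median -0.01). C1rb, which encodes a form of the protease that C1q activates, stood at -0.47 with all knockout arrays below wild type (limma adjusted p = 0.143), C1ra at -0.10 and C2 at 0.17. Of 13 other scavenger and phosphatidylserine receptors 10 were higher (median 0.23). Cd36, with the smallest p, stood at 0.74 (limma adjusted p = 0.0597), the beta-glucan receptor gene Clec7a at 0.57, and Scara5 had the largest change at 1.14 (limma adjusted p = 0.419), with overlapping genotypes. This list shares Cd68, Mertk, Mrc1 and Msr1 with the pan-macrophage genes, and Stab1 and Stab2 with the sinusoidal endothelial markers. Of 12 other genes of haemoglobin and iron handling 7 were higher (median 0.03). Hmox1, which encodes haem oxygenase, read 4.89, 6.07 and 6.06 in the knockout arrays, against 4.53, 4.89 and 4.87 in the wild-type arrays, with a log2 change of 0.90 (limma adjusted p = 0.386).

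None of the markers of the cells around Kupffer cells passed the test either. Sinusoidal endothelial markers were higher in 10 of 12 (median 0.29), and their list mean was -0.07, 0.19 and 0.33 in the knockout arrays, against 0.04, -0.11 and -0.37 in the wild-type arrays. Lyve1, a hyaluronan receptor, stood at 1.29 (limma adjusted p = 0.0743), Ptprb at 0.49 and Cdh5 at 0.38. The 2 lower ones were Dnase1l3 at -0.26 and Clec4g at -0.09. Stellate cell and matrix markers were higher in 10 of 11 (median 0.18), led by Col3a1 at 0.80, Vim at 0.47 and Dcn at 0.40. Their list mean was 0.03, 0.12 and 0.25 in the knockout arrays, against -0.05, -0.14 and -0.21 in the wild-type arrays. Hepatocyte markers were higher in 5 of 10 and lower in 5, with a median of 0.003. The part of these other cells in the values of the 10 was not tested.

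**Figure D4:**
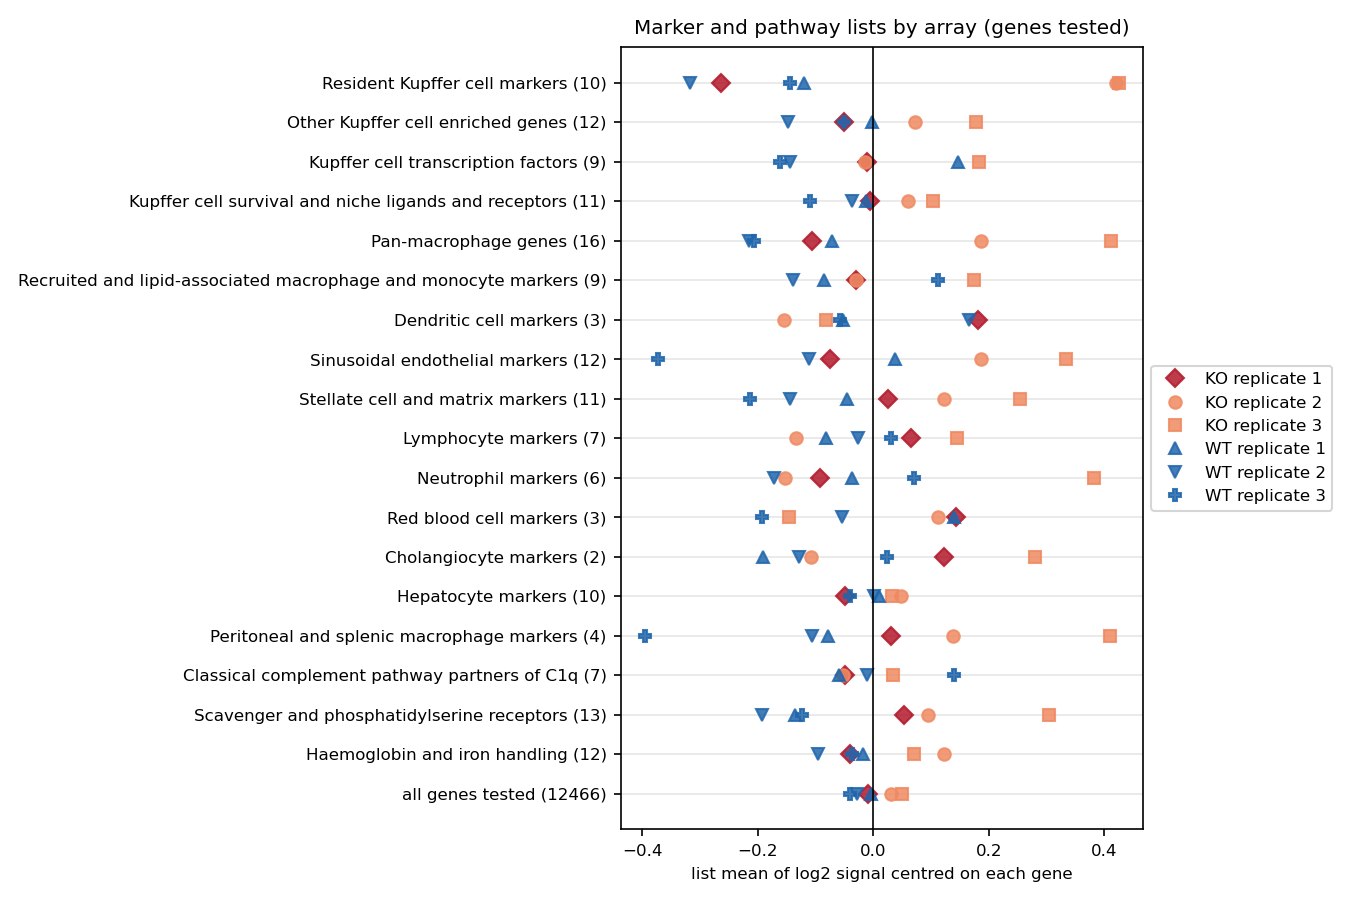
Mean log2 signal of each gene list on each array, every gene centred on its own mean over 6 arrays, with the number of genes tested in brackets; knockout arrays are red and orange and wild-type arrays blue. In the Kupffer cell set knockout replicate 1 (red diamond) sits at -0.26 among the wild-type arrays and the other knockout arrays at 0.42 and 0.43, while the hepatocyte list stays within 0.05 of 0.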

How the data were processed

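Labelled RNA from 6 liver pools (250 ng each, 3' IVT labelling) was, per the labels, hybridised to strip arrays of the Affymetrix MG-430 PM design. The authors deposited log2 RMA values; affy, RMA and limma are named, without versions, in the submitters' processing notes, and no genome build is stated there. RMA normalises by quantiles, so a shift of most genes one way would be reduced.

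Of 45141 probe sets, 28898 had 1 gene symbol, updated by gene number through RefSeq for 28689. The probe set with the highest mean represented a gene, and genes with a mean below 2.66, the 40th percentile over probe sets, were left out. limma 3.58.1 in R 4.3.3 (lmFit, eBayes, two-sided) was run over 12466 genes and checked on simulated data. With 3 arrays per genotype, the smallest p of an exact permutation test is 0.1. Profiles were compared by root mean square difference of centred values. Figures were drawn with matplotlib 3.10.9.

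Named genes are the 10 members and the 6 genes most like the member mean. The 3 genes of smallest p in each of the 17 other lists were also named, of which not all are printed. Alb, Fcna, Slc40a1, Nr1h3, Spi1, Id1, Maf, Trem2, Gpnmb, Scara5, Gata6, Dnase1l3 and Clec4g were named after their values were seen. The members and lists were chosen with earlier results of these data known. Some list genes had no probe set with a single symbol here or were dim, and were not tested. Alternatives were a second quantile normalization, centring on array medians, no filter or the 60th percentile, array weights, a robust prior, a variance trend, averaging a gene's probe sets, leaving out each array and the replicate number as a block.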

Additional observations from a re-analysis of the deposited data

How the results depend on the processing

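Over 15 alternatives, 146 of 149 values of the 10 genes kept their direction and their side of the adjusted threshold of 0.05. The exceptions were Adgre1 with array weights (log2 change 0.76, limma adjusted p = 0.0455; 0.0455 to 0.448 over its alternatives), and C1qb log2 change at -0.042 and C1qc log2 change at -0.025 without knockout replicate 3 (-0.042 to 0.54 for C1qb and -0.025 to 0.44 for C1qc when 1 array was left out); the count of the 10 past the threshold was 1 with array weights and 0 otherwise. The weight of knockout replicate 1 was the lowest of the 6, at 0.433. The median log2 change of the 10 lay between 0.23 and 0.49. The number of genes past the threshold, 5, became 8 with a second quantile normalization, 3 with the 60th percentile filter (where Timd4 was not tested), 3 with the mean of all probe sets, 29 with a variance trend, 50 with array weights, and 1 to 17 when 1 array was left out, with 17 without knockout replicate 1. The cause of these differences was not tested. With the replicate number as a block it was 2, and no call among the 10 changed (Adgre1 limma adjusted p = 0.296). No pairing by replicate number was seen: same-numbered deviations correlated at -0.15, 0.03 and -0.01, and knockout replicate 1 correlated best with wild-type replicate 3. With 3 arrays per genotype this check cannot settle whether the numbers pair the arrays. Timd4 and Cd163 lay under the brightest control for nonspecific signal on all 6 arrays, and Marco did on 5. So did 64 of 138 genes of the other lists, on all 6 arrays. The median of these controls was far lower, at 1.65 to 1.76. Of the 10, only Timd4 had a wild-type mean under the limit for dim signal.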

Other observations

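None of the tested markers of other blood and duct cells passed over all genes. Of 3 dendritic cell genes tested 1 was higher, with a median log2 change of -0.14; Cd209a, a lectin of dendritic cells, stood at -0.22 and Flt3 at 0.25. Of 7 lymphocyte genes 5 were higher (median 0.08), with the B cell gene Ms4a1 at 0.37 and Cd4 at -0.21. Neutrophil genes were higher in 3 of 6 (median 0.06), with S100a9 at 0.30. One of the 3, S100a8, had a wild-type mean of 2.60, under the limit for dim signal of 2.66. It entered the test through its knockout arrays, so its place in this count and median is no support for a difference. Red blood cell genes were higher in 1 of 3 (median -0.12), with Hba-a1 at 0.46. Of the cholangiocyte genes 2 were tested, Sox9 at 0.35 and Epcam at 0.04 (median 0.20). The lists are small, with 2 to 7 genes tested.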
